A study of Mus musculus with 12 samples.

Results

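The data described here are the transcript levels of 10 goblet cell and mucus genes in the mouse ileum: Muc2, Tff3, Fcgbp, Clca1, Zg16, Agr2, Spink4, Spdef, Retnlb and Sytl2. They are the rows of the count table whose Ensembl identifiers map to these symbols. The table held 54838 genes, and all 10 were among the 15938 genes that passed the filter on low counts, so all could be tested. Ileum RNA of 12 female C57BL/6J mice, aged 8 to 14 weeks, was sequenced, with 3 mice in each of 4 groups. Mice of the group water + PBS drank normal water for 7 days and were then injected with PBS, the solvent. Mice of the group water + Dex drank normal water and were injected with 200 µg dexamethasone (Dex), a synthetic glucocorticoid. Mice of the group ZnSO4 + PBS drank 25 mM zinc sulfate for 7 days and received PBS, and those of the group ZnSO4 + Dex drank 25 mM ZnSO4 and received 200 µg Dex. The ileum was taken 2 h after the injection, none carried an engineered allele, and the study compared zinc, Dex and their combination in animals without an inflammatory challenge.

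Goblet cells are secretory cells of the intestinal epithelium that fill granules with the gel-forming mucin MUC2 and release them onto the surface, where the mucin swells into a mucus layer that keeps microbes off the epithelium. Other goblet cell products act on or in that gel, and the transcription factor SPDEF drives the late steps of goblet cell maturation. The samples were pieces of whole ileum, in which goblet cells are a minority, so that a change in the number of goblet cells and a change in the RNA of each cell cannot be told apart.

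Levels were compared per exon length, as FPKM (reads scaled to exon length and library size). The secreted products, and Agr2 of the endoplasmic reticulum, stood among the most abundant transcripts of the ileum. In water + PBS mice the mean was 2340 FPKM for Zg16, 1750 for Tff3, 1140 for Spink4, 893 for Clca1, 545 for Agr2, 361 for Fcgbp and 147 for Muc2. These places ranged from 18 (Zg16) to 283 (Muc2) of 15928 genes with a known length. The other 3 were far lower, with 11.8 FPKM for Spdef, 5.25 for Sytl2 and 2.96 for Retnlb, which stood at places 4142, 7244 and 9420. The level of Muc2 rests on the 7127 exon bases of the annotation, and 12.3% of the 31-base stretches of Fcgbp also occur in other genes, most of them in 9530053A07Rik. None of the 10 genes overlapped an exon of another gene.

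The labels were checked with genes known to follow each treatment. Fkbp5, Tsc22d3, Per1 and Zbtb16, glucocorticoid targets, rose with Dex by LFCs (log2 fold changes) between 2.13 and 3.36. The metallothioneins Mt1 (LFC 4.60) and Mt2 (LFC 5.22) and the zinc exporter Slc30a2 (LFC 1.60) rose with ZnSO4, and the zinc importer Slc39a4 fell (LFC -3.22). The libraries held between 10760132 and 11827487 counted reads. The ZnSO4 + Dex library of replicate 2 had the lowest sum of 12 enterocyte markers (14800 CPM, counts scaled to library size, against 23100 to 34400 in the other 11 libraries). Summed T cell markers were between 73.8 and 132 CPM in water mice and between 39.1 and 75.5 in ZnSO4 mice, and plasma cell markers were between 8370 and 11700 and between 6850 and 10100. B cell markers spread from 13.1 to 680 CPM, with wide overlap between the groups. Summed markers of Paneth cells, the antimicrobial secretory cells of the crypt, spread from 15800 to 36100 CPM. In ZnSO4 + Dex replicates 1, 2 and 3 they were 32000, 35500 and 15800 CPM. Summed smooth muscle markers, which stand for the muscle wall of the gut, were between 1280 and 1670 CPM in water + PBS mice, 1610 and 1710 in water + Dex mice, 1500 and 2710 in ZnSO4 + PBS mice and 1840 and 2670 in ZnSO4 + Dex mice. All 6 of these markers had positive LFCs with ZnSO4, averaged over PBS and Dex mice (median 0.37), and 1 of them, Tagln, was called (LFC 0.50, adjusted p = 0.037). The part of these cell types in the results below was not tested, apart from a fit with the B cell markers as a covariate.

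For 4 of the 10 genes a RefSeq promoter window was at hand, and the 250 bases before the start site were searched on both strands for 3 motifs: AGAACA (the hexamer bound by 1 glucocorticoid receptor subunit), TGCACNC or TGCGCNC (the core of the metal response element bound by the zinc sensor MTF1) and GGATGT or CCGGAT (an ETS motif of the kind SPDEF binds). The windows of Muc2 and Spdef are shown because Muc2 had the highest positive LFC of the 10 with ZnSO4 and Spdef is the regulator among the 10. Capitals mark the matches, the build is GRCm38.p6, and both are written along the gene's own strand.
Muc2, chr7:141690090-141690339, plus strand: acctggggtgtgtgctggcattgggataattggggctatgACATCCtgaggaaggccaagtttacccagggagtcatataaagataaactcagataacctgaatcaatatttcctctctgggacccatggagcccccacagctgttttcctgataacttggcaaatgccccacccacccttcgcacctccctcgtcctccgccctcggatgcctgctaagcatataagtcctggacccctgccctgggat
Spdef, chr17:27728952-27729201, minus strand: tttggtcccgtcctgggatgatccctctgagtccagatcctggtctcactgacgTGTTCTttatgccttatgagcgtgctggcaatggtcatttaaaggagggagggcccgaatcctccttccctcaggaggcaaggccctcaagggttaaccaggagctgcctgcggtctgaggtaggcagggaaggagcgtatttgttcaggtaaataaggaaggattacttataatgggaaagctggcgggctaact
The Muc2 window held 1 ETS match, on the reverse strand at position -210, and neither of the other motifs. The Spdef window held 1 glucocorticoid receptor hexamer, on the reverse strand at position -196. The windows of Fcgbp and Agr2 held none of the 3 motifs. Among all 32851 windows of this length, 16.1% held the glucocorticoid receptor hexamer, 21.4% the metal response element core and 13.6% the ETS motif. The matches are a description only.

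Muc2 (ENSMUSG00000025515, chr7:141690340-141754693), the gel-forming mucin, was the gene among the 10 with the highest LFC after ZnSO4. Levels of single genes are given as normalised counts, that is counts scaled to a common library size of 11377723 reads, in the order of replicates 1, 2 and 3. The water + PBS mice had 12158, 11828 and 11813, and the water + Dex mice 12064, 11276 and 11147. In the ZnSO4 + PBS mice the counts were 18792, 19278 and 27707, and in the ZnSO4 + Dex mice 18673, 15379 and 27051. All 6 ZnSO4 mice lay above all 6 water mice, as was the case for 2.36% of all tested genes, and the ZnSO4 mice differed among themselves by up to 1.76-fold within a group, against at most 1.08-fold in the water groups.

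Fcgbp (ENSMUSG00000047730, chr7:28071236-28120862), the Fc gamma binding protein that is a structural part of the gel, showed a smaller spread. Its normalised counts were 45787, 43552 and 40157 in water + PBS mice and 51449, 54106 and 50355 in water + Dex mice. In ZnSO4 mice they were 51277, 44692 and 56800 with PBS and 52435, 59568 and 59647 with Dex. The 3 water + Dex mice were above the 3 water + PBS mice, whereas the ZnSO4 + PBS group overlapped with the other groups.

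Clca1 (ENSMUSG00000028255, chr3:145003817-145032776), a secreted metalloprotease that processes MUC2 in the gel, varied little. It had 38866, 36265 and 40051 normalised counts in water + PBS mice and 40897, 45761 and 44819 in water + Dex mice. The ZnSO4 + PBS mice had 43114, 38142 and 38227, and the ZnSO4 + Dex mice 47038, 53251 and 46237. The ZnSO4 + PBS and water + PBS mice overlapped, and the ZnSO4 + Dex mice were above all other mice.

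Zg16 (ENSMUSG00000049350, chr7:127050156-127087328), a lectin of the mucus that binds Gram-positive bacteria, had 29943, 35481 and 35022 normalised counts in water + PBS mice and 37763, 40477 and 36383 in water + Dex mice. In ZnSO4 + PBS mice it had 47283, 38717 and 44658, and in ZnSO4 + Dex mice 45498, 57784 and 58088. Each ZnSO4 group was above the water + PBS group without overlap.

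Tff3 (ENSMUSG00000024029, chr17:31125306-31129646), the intestinal trefoil factor that is secreted with the mucin and aids epithelial repair, was even within the water groups. The water + PBS mice had 9352, 9850 and 10166 normalised counts, and the water + Dex mice 10845, 11476 and 11498. The ZnSO4 + PBS mice had 13025, 10836 and 12703, and the ZnSO4 + Dex mice 13193, 16411 and 15777. The ZnSO4 + Dex mice were above all other mice, and the water + PBS mice below all others.

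Agr2 (ENSMUSG00000020581, chr12:35992907-36004087), a protein disulfide isomerase of the endoplasmic reticulum needed to make MUC2, overlapped between the groups. It had 9280, 6739 and 8011 normalised counts in water + PBS mice, 9006, 8613 and 9296 in water + Dex mice, 8316, 7946 and 12292 in ZnSO4 + PBS mice and 8666, 12636 and 12046 in ZnSO4 + Dex mice. The highest values were those of ZnSO4 + PBS replicate 3 and of ZnSO4 + Dex replicates 2 and 3.

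Spink4 (ENSMUSG00000028415, chr4:40920052-40931395), a secreted peptide of the Kazal type of protease inhibitors, was high in the same 3 mice. Its normalised counts were 6338, 5788 and 6476 in water + PBS mice, 7155, 7118 and 7718 in water + Dex mice, 6495, 6231 and 8956 in ZnSO4 + PBS mice and 7180, 9553 and 8773 in ZnSO4 + Dex mice. Both Dex groups were above the water + PBS group.

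Spdef (ENSMUSG00000024215, chr17:27714352-27728955), the maturation factor, was read at far lower counts. It had 317, 241 and 374 normalised counts in water + PBS mice, 377, 289 and 470 in water + Dex mice, 388, 282 and 384 in ZnSO4 + PBS mice and 442, 482 and 454 in ZnSO4 + Dex mice. In the first 3 groups replicate 2 was the lowest, and the ZnSO4 + Dex mice were close together and above the mice of both PBS groups.

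Sytl2 (ENSMUSG00000030616, chr7:90302252-90410719), an effector of RAB27 that tethers secretory granules, had 825, 690 and 985 normalised counts in water + PBS mice and 817, 813 and 1047 in water + Dex mice. The ZnSO4 + PBS mice had 1114, 832 and 936, and the ZnSO4 + Dex mice 1193, 1274 and 991. Only the ZnSO4 + Dex and water + PBS groups did not overlap among the pairs that differ by ZnSO4, by Dex or by both.

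Retnlb (ENSMUSG00000022650, chr16:48816856-48818892), a resistin-like antimicrobial protein that goblet cells release, was near the limit of what this depth can measure, and its raw counts are therefore given. They were 30, 22 and 20 reads in water + PBS mice, 22, 27 and 21 in water + Dex mice, 1, 9 and 15 in ZnSO4 + PBS mice and 5, 7 and 18 in ZnSO4 + Dex mice. All 6 ZnSO4 mice had fewer reads than each of the 6 water mice, although after scaling to library size ZnSO4 + Dex replicate 3 (19.2 normalised counts) lay just above the lowest water mouse (19.0).

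**Figure D1:**
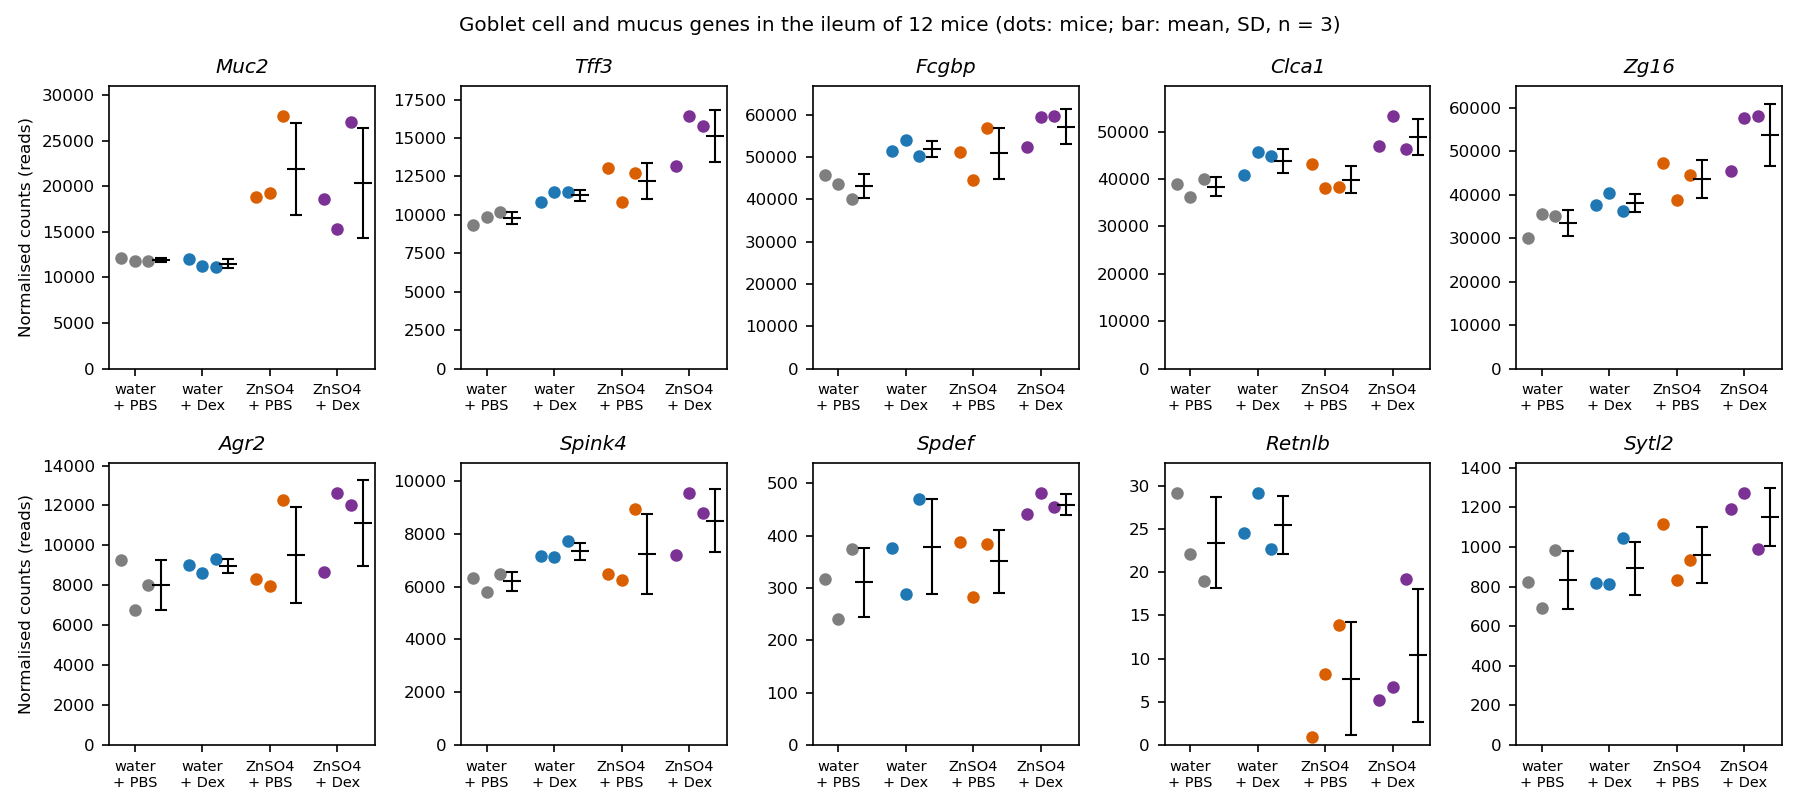
Normalised counts (reads scaled to the common library size) of the 10 genes in the 4 groups, with 1 dot per mouse, replicates 1 to 3 from left to right, and a bar for the mean and SD of 3 mice. The Muc2 dots of the 6 ZnSO4 mice lie between 15379 and 27707, above the range from 11147 to 12158 of the 6 water mice, and the Retnlb dots lie lower in the ZnSO4 groups.

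The effect of ZnSO4 was tested in PBS mice, in Dex mice and as the average of both. In PBS mice Muc2 rose from 11933 ± 195 to 21926 ± 5013 normalised counts (mean ± SD, n = 3; LFC 0.88, SE 0.20, adjusted p = 0.033). It was the only 1 of the 10 genes that was called (adjusted p under 0.05 in edgeR's quasi-likelihood test with Benjamini-Hochberg adjustment over all tested genes, which gives every adjusted p here), beside 4.66% of all tested genes called in either direction and 2.11% called higher. The median LFC of the 10 genes was 0.23 and that of all genes -0.013. The other 9 had adjusted p-values of 0.14 or more, with LFCs between -1.59 (Retnlb) and 0.38 (Zg16). The groups did not overlap for 4 genes, Muc2, Tff3 and Zg16, higher, and Retnlb, lower, and did not overlap for 25.3% of all tested genes.

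In Dex mice the picture was alike. Muc2 rose from 11496 ± 497 to 20368 ± 6018 normalised counts (n = 3; LFC 0.83, SE 0.20, adjusted p = 0.042) and was again the only 1 of 10 called, beside 4.37% of all genes, or 1.83% called higher. Tff3 had an LFC of 0.42 (adjusted p = 0.056) and Zg16 of 0.49 (adjusted p = 0.099). The median LFC was 0.29, beside 0.007 over all genes. Muc2 lost its call in PBS mice without any 1 of the 6 water libraries or of ZnSO4 + PBS replicates 1 and 3 (adjusted p 0.052 to 0.13). In these fits its LFC was between 0.67 and 0.98, and between 283 and 571 of all genes were called, against 742 with all libraries. In Dex mice Muc2 lost its call without any 1 of the 6 water libraries or of ZnSO4 + PBS replicate 2 or ZnSO4 + Dex replicates 1 and 3 (adjusted p from 0.050 to 0.14). There its LFC was between 0.56 and 0.88, and between 322 and 696 of all genes were called, against 696 with all libraries. A fit of only the 2 groups compared also ended the call of Muc2 in Dex mice (adjusted p = 0.078). DESeq2, in place of edgeR, called 3 of the 10 genes in PBS mice and 3 in Dex mice, adding Tff3 and Zg16 in each. Of all 15938 tested genes it called 1056 and 1022, against 742 and 696 by edgeR.

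Averaged over PBS and Dex mice, ZnSO4 raised Muc2 by an LFC of 0.85 (SE 0.14, adjusted p = 0.0027), Tff3 by 0.37 (SE 0.08, adjusted p = 0.011) and Zg16 by 0.44 (SE 0.11, adjusted p = 0.022). Retnlb fell (LFC -1.44, SE 0.41, adjusted p = 0.040). These 4 of 10 genes were called beside 12.8% of all genes (6.24% of all genes higher and 6.52% lower). The LFCs of the remaining 6 were all positive, between 0.10 (Clca1) and 0.29 (Sytl2), with adjusted p-values of 0.11 or more. The median LFC of the 10 was 0.25, beside -0.005 over all genes. Muc2 and Tff3 kept their calls in all 12 fits without 1 library. Zg16 lost it without water + PBS replicate 1, water + Dex replicate 1 or 3, or ZnSO4 + PBS replicate 3 (adjusted p 0.053 to 0.062), and Retnlb without 9 libraries, all 6 of the water mice, ZnSO4 + PBS replicate 2 and ZnSO4 + Dex replicates 1 and 2 (adjusted p 0.056 to 0.089).

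The effect of Dex, measured 2 h after injection, was tested in the same way. In water mice the LFC of Muc2 was -0.05 (95% interval -0.49 to 0.38, adjusted p = 0.91), and in ZnSO4 mice -0.11 (95% interval -0.54 to 0.33, adjusted p = 0.79). The other 9 genes all had positive LFCs, between 0.10 and 0.28 in water mice and between 0.17 and 0.41 in ZnSO4 mice. None of the 10 was called by edgeR in water mice, beside 9.93% of all genes, and 0 passed an unadjusted p of 0.05, beside 22.7%. In ZnSO4 mice none was called either, beside 13.7% of all genes, and 2 (Tff3 and Clca1) passed an unadjusted p of 0.05, beside 26.3%. DESeq2 called 0 of the 10 genes in water mice and 2 in ZnSO4 mice, Tff3 and Clca1. Of all 15938 tested genes it called 1732 and 2358, against 1582 and 2189 by edgeR. The median LFCs were 0.19 and 0.28, beside medians of all genes of -0.014 and 0.009. In water mice the groups did not overlap for 5 genes (Tff3, Fcgbp, Clca1, Zg16 and Spink4, all higher with Dex), beside 29.7% of all genes, or 15.2% in the higher direction.

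Averaged over water and ZnSO4 mice, Dex raised Tff3 by an LFC of 0.26 (SE 0.08, adjusted p = 0.037), and this was 1 of 10 genes called, beside 21.5% of all genes, or 10.4% called higher. Muc2 had an LFC of -0.08 (adjusted p = 0.74). The largest LFC, 0.34, was that of Spdef (adjusted p = 0.11). The call of Tff3 was lost without any 1 of the 6 water libraries, of ZnSO4 + PBS replicates 2 and 3 or of ZnSO4 + Dex replicate 3 (adjusted p 0.053 to 0.099). DESeq2 called 4 of the 10 genes, adding Fcgbp, Clca1 and Zg16, beside 3506 of all 15938 tested genes (3432 by edgeR).

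The median LFC of the 10 genes and the number without overlap were highest between the mice that received both treatments and those that received neither, although the LFCs of Muc2 and Retnlb (-1.18, with overlap) were smaller in size there than with ZnSO4 in PBS mice. In ZnSO4 + Dex mice Muc2 rose by an LFC of 0.77 (SE 0.20, adjusted p = 0.017), Tff3 by 0.63 (SE 0.11, adjusted p = 0.0019), Zg16 by 0.68 (SE 0.15, adjusted p = 0.0077) and Spink4 by 0.46 (SE 0.14, adjusted p = 0.041). These 4 of 10 were called beside 23.3% of all genes, and all 4 were called higher, beside 11.5% of all genes. Tff3 went from 9789 ± 411 to 15127 ± 1705 normalised counts and Zg16 from 33482 ± 3073 to 53790 ± 7183 (n = 3). Fcgbp, Clca1, Agr2, Spdef and Sytl2 had LFCs between 0.35 and 0.56 with adjusted p-values between 0.051 and 0.097. The groups did not overlap for 8 of the 10, all higher with both treatments. They did not overlap for 36.9% of all genes, and for 18.0% of all genes in the higher direction. The median LFC of the 10 was 0.47, beside -0.005 over all genes.

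These comparisons share their control mice, so that they are not independent of each other. Tff3 and Zg16 kept their calls in all 12 fits without 1 library. Muc2 lost it without water + PBS replicate 2 or 3 or ZnSO4 + Dex replicate 3 (adjusted p 0.051 to 0.054), and Spink4 without any 1 of the 6 water libraries or of ZnSO4 + Dex replicates 2 and 3 (adjusted p 0.057 to 0.13). DESeq2 called 9 of the 10, all but Retnlb, beside 3767 of all 15938 tested genes (3719 by edgeR). When only these 2 groups were fitted, Muc2 (adjusted p = 0.052), Zg16 (adjusted p = 0.065) and Spink4 (adjusted p = 0.066) lost their calls, Tff3 kept its call (adjusted p = 0.025) and Spdef gained one (adjusted p = 0.048).

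Whether Dex changed the effect of ZnSO4 was tested with an interaction term. None of the 10 genes was called, and neither was any other gene by edgeR (0% of all genes, with 794 genes or 4.98% at an unadjusted p under 0.05, none of them among the 10). The interaction of Muc2 was -0.05 on the LFC scale (95% interval -0.67 to 0.57), that of Tff3 0.11 (95% interval -0.24 to 0.45) and that of Zg16 0.11 (95% interval -0.36 to 0.58). The intervals leave room for an interaction as large as most of the single effects. DESeq2 also called 0 of the 10, beside 6 of all 15938 tested genes.

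**Figure D2:**
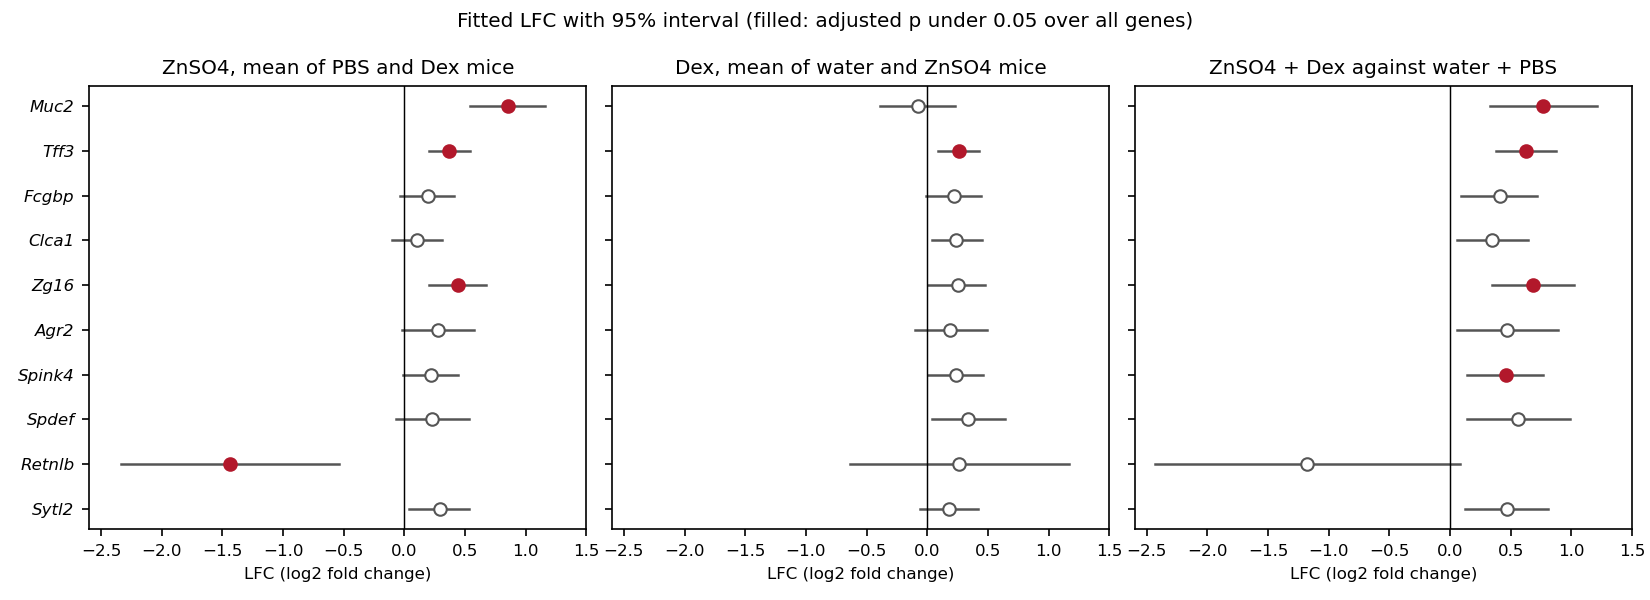
Fitted LFC (log2 fold change, horizontal axis) of each gene with its 95% interval, for ZnSO4 averaged over PBS and Dex mice, Dex averaged over water and ZnSO4 mice, and ZnSO4 + Dex against water + PBS. Filled points have an adjusted p under 0.05, and Muc2 stands at 0.85, -0.08 and 0.77 while the other genes, apart from Retnlb, are positive in all 3 panels.

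The composition of the mucus transcripts also differed between mice. Together the 10 genes held between 1.33 and 1.37% of all counted reads in water + PBS mice, between 1.40 and 1.47% in water + Dex mice, 1.58 to 1.86% in ZnSO4 + PBS mice and 1.68 to 2.17% in ZnSO4 + Dex mice. In these shares of raw totals every ZnSO4 mouse was above every water mouse. This separation was lost in the summed CPM of the 10 genes, which use normalised library sizes. There ZnSO4 + PBS replicate 2 (14700 CPM) lay below the 3 water + Dex mice (15000 to 15800 CPM). Of the reads of the 10 genes, Muc2 took between 7.72 and 7.95% in water + PBS mice, between 6.27 and 7.08% in water + Dex mice and 9.90 to 13.7% in ZnSO4 + PBS mice. In ZnSO4 + Dex mice it took 9.61% in replicate 1, 6.79% in replicate 2 and 11.8% in replicate 3. The second of these lay within the range of the water mice, although the same library had the highest share of all 10 genes together (2.17%), and it was also the library with the lowest enterocyte markers. The smooth muscle markers were highest in ZnSO4 + PBS replicate 3 (2710 CPM) and in this library (2670 CPM), and each of these had the highest share of the 10 genes in its group (1.86 and 2.17%). Among the water + PBS mice replicate 3 was likewise highest in both (1670 CPM and 1.37%). Among the water + Dex mice replicate 3 had the highest smooth muscle markers (1710 CPM) but the lowest share of the 10 genes (1.40%). These shares are of raw totals, whereas the marker sums use normalised library sizes. In CPM the order of the 10 genes differed in both Dex groups. ZnSO4 + Dex replicate 3 (20100 CPM) was above replicate 2 (19900 CPM), and water + Dex replicate 1 (15000 CPM) was below replicate 3 (15200 CPM). The ratio of Muc2 to Clca1 reads was 0.246 to 0.326 in the 6 water mice and 0.289 to 0.725 in the 6 ZnSO4 mice, with 0.289 again in ZnSO4 + Dex replicate 2. These shares were examined after the counts had been seen and are given without a test.

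**Figure D3:**
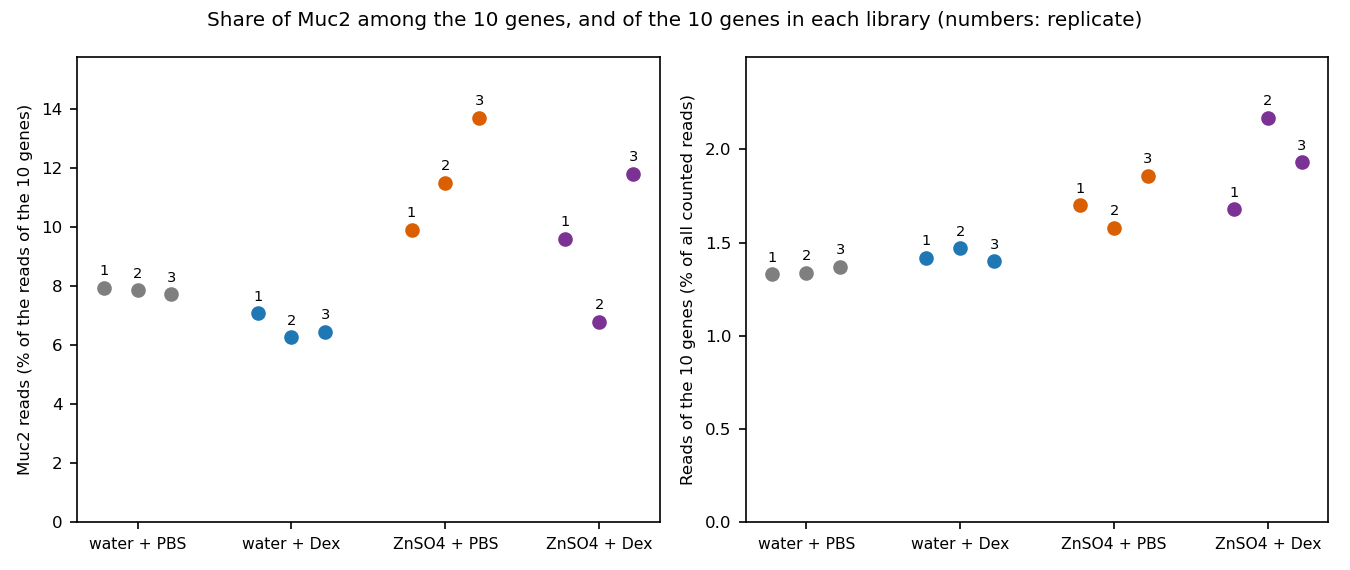
Left, reads of Muc2 as a percentage of the reads of the 10 genes, and right, reads of the 10 genes as a percentage of all counted reads, 1 dot per mouse with its replicate number. ZnSO4 + Dex replicate 2 has the highest share on the right (2.17%) and, on the left, 6.79%, a share like that of the water mice.

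Within groups most of the genes moved together from mouse to mouse. After the mean of each group had been subtracted from the log2 levels, the correlation over the 12 libraries was positive for 37 of the 45 pairs, with a median r of 0.36, and for 27 of the 28 pairs without Muc2 and Retnlb, with a median of 0.41. It was 0.94 between Agr2 and Spink4, 0.90 between Tff3 and Zg16 and 0.82 between Spdef and Sytl2. Muc2 went with Retnlb (r = 0.74) and against Clca1 (r = -0.61). The value for Retnlb rests on 1 to 30 reads per mouse. These values describe 12 libraries that share each library's size factor and cell mix, and pairs of other genes were not counted in this way. Across all 12 libraries, groups included, the genes outside the 10 whose log2 levels were most like the mean standardised level of the 10 were Pcsk6 (r = 0.963), Krt18 (0.957), Lrrc26 (0.953), Ldb2 (0.949) and Snhg18 (0.948). From the group without treatment to Dex alone, ZnSO4 alone and both, Pcsk6 had means of 248, 305, 338 and 452 normalised counts and Krt18, a keratin of simple epithelia, 2708, 2966, 3266 and 3786.

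Other genes of the pathway were counted by lists, which overlap in a few genes. Of the other goblet cell genes, Atoh1, Gfi1 and Foxa3 also count among the regulators below, Galnt12 among the glycosylation genes and Ang4 among the Paneth cell markers. Of 28 tested genes known from goblet cells besides the 10, ZnSO4, averaged over PBS and Dex mice, raised 11 and lowered 2 (median LFC 0.21, beside -0.005 over all genes), beside 6.24% of all genes called higher and 6.52% called lower. With the lowest adjusted p-values, Scin, an actin-severing protein, rose by an LFC of 0.93 (adjusted p = 0.00041), Bcas1 by 0.82 (adjusted p = 0.00057) and Fer1l6 by 0.63 (adjusted p = 0.00044), and Sdf2l1, a partner of chaperones in the endoplasmic reticulum, fell (LFC -0.75, adjusted p = 0.00040). Dex raised 8 and lowered 3 of the 28 (median LFC 0.22, beside -0.001), beside 10.4% of all genes called higher and 11.2% called lower. Among them the inflammasome sensor Nlrp6 (LFC -0.78, adjusted p = 1e-05) and the potassium channel Kcnn4 (LFC -0.64, adjusted p = 0.00034) fell, and Galnt12 (LFC 0.27, adjusted p = 0.011) and Lrrc26, a channel subunit (LFC 0.36, adjusted p = 0.012), rose.

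MUC2 is coated with O-glycans that are built by a chain of glycosyltransferases. Of 27 tested genes of this chain, ZnSO4 lowered 8 and raised 3 (median LFC -0.07). The 3 largest falls were in enzymes that extend or cap the chains. B3galt5 fell from a mean of 281 normalised counts over the water groups to 31.1 over the ZnSO4 groups (LFC -3.13, SE 0.32, adjusted p = 0.00014). The fucosyltransferase Fut2, which adds the terminal fucose of the H antigen, fell from 277 to 45.2 (LFC -2.61, SE 0.25, adjusted p = 0.00011), and B3gnt7 from 944 to 226 (LFC -2.05, SE 0.15, adjusted p = 1.2e-05). The sialyltransferase St6galnac2 rose (LFC 0.53, adjusted p = 0.0018). Enterocytes also make these enzymes, and these counts do not tell in which cells they fell.

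Dex raised 9 and lowered 4 of the same 27 genes (median LFC 0.19). Gcnt1 and Gcnt3, enzymes that branch the chain (core 2 synthases), rose by LFCs of 1.55 (SE 0.19, adjusted p = 0.00012) and 1.02 (SE 0.13, adjusted p = 0.00018). Gcnt4, of the same gene family, went the other way and fell (LFC -0.82, adjusted p = 0.00028). The sialyltransferase St3gal4 also fell (LFC -1.21, adjusted p = 0.00028). It was the most abundant of these 4, with a mean of 15280 normalised counts over the PBS groups and 6785 over the Dex groups. Beside these, 12.8% of all genes were called with ZnSO4 and 21.5% with Dex.

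Of the other mucins, 6 of 13 in the table could be tested. The membrane-bound mucins Muc4 (LFC -0.97, SE 0.19, adjusted p = 0.0074) and Muc13 (LFC -0.77, SE 0.15, adjusted p = 0.0079) fell with ZnSO4, and none of the 6 was called higher. The LFCs of 3 of the 6 were positive, and the median was 0.15. Muc13 went from a mean of 51410 to 30230 normalised counts. With Dex, of the 6, Emcn, a sialomucin of blood vessels, rose (LFC 0.53, adjusted p = 0.013). Among 15 tested paralogs of the 10 genes, ZnSO4 raised 3, the synaptotagmin-like genes Sytl1 (LFC 0.59, adjusted p = 0.0054) and Sytl4 (LFC 0.47, adjusted p = 0.0062) and Agr3 (LFC 1.35, adjusted p = 0.025), and lowered Clca3a2 (LFC -0.53, adjusted p = 0.033). Dex raised 4 and lowered none of the 15, Sytl3 (LFC 0.66, adjusted p = 7e-04), Clca3a1 (LFC 0.65, adjusted p = 0.0015), Clca3b (LFC 0.31, adjusted p = 0.0090) and Sytl1 (LFC 0.44, adjusted p = 0.016). Of all genes 12.8% were called with ZnSO4 and 21.5% with Dex (10.4% of all genes higher). Agr3 lost its call without water + PBS replicate 2, water + Dex replicate 1 or 2 or ZnSO4 + PBS replicate 1 or 3 (adjusted p 0.054 to 0.062), and Clca3a2 without any of 9 libraries, that is all but water + PBS replicate 1, water + Dex replicate 2 and ZnSO4 + PBS replicate 2 (adjusted p 0.054 to 0.084).

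Release and unfolding of the gel need granule fusion, bicarbonate and salt transport, the protease meprin beta and crosslinking by transglutaminases. Of 16 tested genes of this list, ZnSO4 raised 2 and lowered 4, beside 6.24% of all genes called higher and 6.52% lower. Rab27b, a granule GTPase, rose (LFC 0.62, SE 0.07, adjusted p = 0.00017), whereas Tgm2 (LFC -1.09, adjusted p = 7.2e-05), the sodium-proton exchanger Slc9a3 (LFC -1.70, adjusted p = 0.00086) and Mep1b, which encodes meprin beta (LFC -0.78, adjusted p = 0.0060), fell. Dex raised 5 and lowered none, beside 10.4% of all genes called higher and 11.2% lower, among them Slc9a3 (LFC 2.79, SE 0.24, adjusted p = 8.2e-06), Tgm2 (LFC 1.75, SE 0.10, adjusted p = 3.6e-07), Slc12a2 (LFC 0.80, adjusted p = 7.4e-05) and Slc26a3 (LFC 0.86, adjusted p = 0.0023). Slc9a3 and Tgm2 thus went in opposite directions with the 2 treatments.

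Among 20 tested regulators of goblet cell fate and function, ZnSO4 raised 2 and lowered 5, and Dex raised 3 and lowered 10 (median LFCs -0.17 and -0.28). Of all genes, ZnSO4 raised 6.24% and lowered 6.52%, and Dex raised 10.4% and lowered 11.2%. With ZnSO4 the cytokine Il18 fell (LFC -1.30, SE 0.14, adjusted p = 0.00021), as did Xbp1, a factor of the secretory pathway (LFC -0.40, adjusted p = 0.0058), Elf3 (LFC -0.34, adjusted p = 0.026) and Gfi1 (LFC -0.37, adjusted p = 0.030). With Dex the intestinal factors Cdx2 (LFC -0.90, adjusted p = 1.4e-06) and Hnf4a (LFC -0.73, adjusted p = 1e-04) and the Notch ligand Dll4 (LFC -1.06, adjusted p = 8e-06) fell, and Notch1, the receptor, rose (LFC 0.58, adjusted p = 2.8e-05). Elf3 lost its call without water + PBS replicate 1, water + Dex replicate 1 or 3 or ZnSO4 + PBS replicate 1 or 3 (adjusted p 0.054 to 0.082), and Gfi1 without any of 8 libraries, that is all but water + PBS replicate 1, water + Dex replicate 1, ZnSO4 + PBS replicate 2 and ZnSO4 + Dex replicate 2 (adjusted p 0.053 to 0.074).

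**Figure D4:**
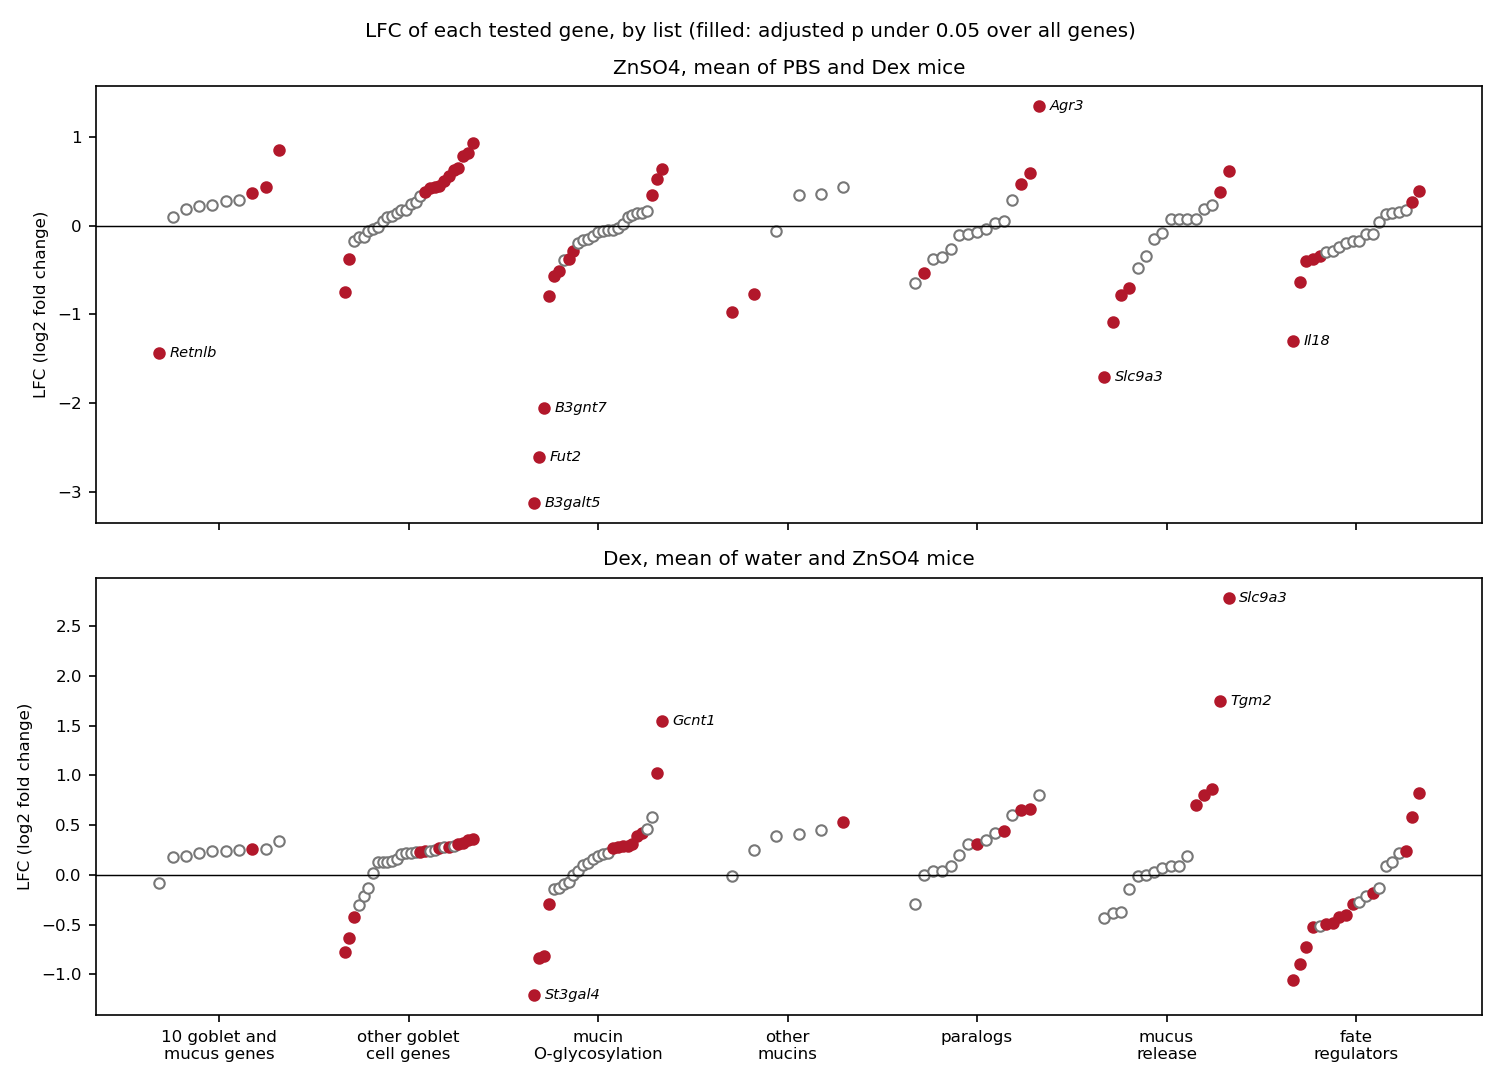
LFC (vertical axis) of every tested gene of 7 lists, sorted within each list, for ZnSO4 averaged over PBS and Dex mice (top) and Dex averaged over water and ZnSO4 mice (bottom). Filled points have an adjusted p under 0.05, called genes past 1.2 in size are named, and the lowest points of the top panel are the glycosyltransferase genes B3galt5 (-3.13), Fut2 (-2.61) and B3gnt7 (-2.05).

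Some of the genes named from the lists share sequence with others, and where reads on shared stretches were placed is not known. This was 40.6% of the 31-base stretches for Clca3a1 and Clca3a2, which share them with each other, 23.0% for Sytl3, 20.0% for Tgm2 and between 9.99 and 15.1% for Clca3b, St6galnac2, St3gal4, B3gnt7, Bcas1 and Gcnt4.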

How the data were processed

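RNA-seq of 12 ileum libraries was used, with 3 mice for each combination of drinking water (normal or ZnSO4) and injection (PBS or Dex) in the labels. According to the study's methods and the submitters' processing notes, the authors trimmed the reads (Trimmomatic), mapped them to mm10 with HISAT2 2.0.4 and made the deposited raw counts per gene with featureCounts; libraries were stranded and single-end. The annotation release and the strand setting of the counting are not given in the sources used here. The labels give the injection volume in a unit that does not suit a mouse, so no volume is reported. Symbols, positions and exon lengths came from the GENCODE annotation of GRCm38, the assembly mm10 names, and promoter windows from RefSeq (GRCm38.p6).

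Counts were analysed in R 4.3.3 with edgeR 4.0.16. Genes were filtered with filterByExpr (minimum count 10), normalised by TMM, and fitted with 4 group means in 1 quasi-likelihood model. The p-values were adjusted by Benjamini-Hochberg over the 15938 tested genes, which held 99.8% of all counts, and a gene was called at an adjusted p under 0.05. The SE of an LFC was taken from the LFC and its F statistic. The common biological coefficient of variation was 0.191. With 3 mice against 3, no exact 2-sided permutation test of a single gene can reach 0.05. The p-values of genes come from this model in every comparison, including the averaged ones, to which that limit does not apply. The p-values measure the spread between mice, of which the labels say only that they are separate samples. No 2 libraries of a group were alike enough to be 1 library deposited again (chi-square per degree of freedom 8.30 to 45.3).

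The genes and gene lists were chosen with earlier results of these data known. All 10 genes are given in every library. A gene called in a comparison is given there with its LFC and adjusted p, and from each list at most the 4 called genes of lowest adjusted p are named. The replicate numbers of the labels were not treated as pairs, since libraries of the same number did not deviate together (median correlation -0.0557 over 18 pairs, against 0.0225 over 36 pairs of different number). Alternatives were DESeq2 1.42.0, RLE and upper-quartile factors, no filter, a minimum of 10 counts in all libraries, a block for the replicate number, fits of the compared groups alone, an LFC above 0.8 in size as in the study, the B cell markers as a covariate, and leaving out each of the 12 libraries. The procedure was tested on simulated data. Sex and age range of the mice are those the study's methods give for purchased mice of this strain. The liver libraries and the other experiments of the study were not used here.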

Additional observations from a re-analysis of the deposited data

How the results depend on the processing

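The count of the 10 genes that were called depended on the test and its settings. None of the 54 refitted LFCs of called genes, from the 10 genes and the mucus-related lists, changed sign under any alternative. These LFCs were picked because they were called in the same data, so that a kept sign was likely beforehand. The signs of single LFCs that were not called were not compared between settings. The median LFC of the 10 genes moved by less than 0.16 in all 8 comparisons. That limit is the SD between mice, within groups, of the median log2 level of the 10 genes. It is wide beside medians of 0.10 to 0.47, so that staying within it says little. For the interaction the median was 0.10 with all libraries and between 0 and 0.15 without 1 library. DESeq2 called 3 of the 10 for ZnSO4 in PBS mice, 3 for ZnSO4 in Dex mice, 2 for Dex in ZnSO4 mice, 9 for ZnSO4 and Dex together and 4 for Dex averaged. In the same order it called 1056, 1022, 2358, 3767 and 3506 of all 15938 tested genes. Upper-quartile factors gave 2 for ZnSO4 in Dex mice and 7 for both treatments together. With at least 10 counts in every library 2 were called for ZnSO4 in Dex mice, beside 748 of all 13666 genes tested so, and Retnlb could not be tested. Fits of only the groups compared gave 0 for ZnSO4 in Dex mice and 2 for both treatments together (Tff3 and Spdef, with the calls of Muc2, Zg16 and Spink4 lost). They called 527 of 15158 and 2549 of 15340 tested genes. Retnlb was not tested in such a fit for Dex in ZnSO4 mice. An LFC above 0.8 left 2 for ZnSO4 averaged, Muc2 and Retnlb, 0 for both treatments together and 0 for Dex averaged. It left 432, 1540 and 1005 of all 15938 tested genes. With no filter on low counts 0 were called for Dex averaged, beside 3141 of all 30321 genes tested so. With the B cell markers as a covariate 0 were called for Dex averaged and 0 for ZnSO4 in Dex mice (Muc2 LFC 0.82, adjusted p = 0.051), and Spink4 lost its call with both treatments (adjusted p = 0.14). That fit called 2988 of all 15938 tested genes for Dex averaged and 744 for ZnSO4 in Dex mice. Gfi1 lost its call with ZnSO4 when no filter was used (adjusted p = 0.077).

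Leaving out 1 library at a time, the count of called genes among the 10 ranged from 0 to 1 for ZnSO4 in PBS mice, from 0 to 1 for ZnSO4 in Dex mice, was 0 throughout for Dex in water mice, ranged from 0 to 1 for Dex in ZnSO4 mice, from 2 to 6 for both treatments together, from 2 to 4 for ZnSO4 averaged and from 0 to 1 for Dex averaged, and was 0 throughout for the interaction. Of all tested genes, these fits called 283 to 1001, 322 to 696, 936 to 1852, 1496 to 2175, 2669 to 3691, 1398 to 2000, 2750 to 3394 and 0, in the same order. With the replicate block the counts were 1, 0, 1, 0, 5, 4 and 1 in the order of the comparisons of ZnSO4 in PBS mice, Dex in water mice, ZnSO4 in Dex mice, Dex in ZnSO4 mice, both together, ZnSO4 averaged and Dex averaged. Of all 15938 tested genes 577, 1428, 606, 2015, 3465, 1810 and 3176 were called with the block, in that order. Under the block Spdef took the place of Tff3 for Dex averaged (LFC 0.35, adjusted p = 0.039) and was added for both treatments together (LFC 0.60, adjusted p = 0.017). It changed no other call of the 10 genes. Without the block, 4 of the 12 libraries correlated best with a library of their own number. Depth limited mainly Retnlb, with 1 to 30 reads per mouse.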

Other observations

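Enteroendocrine cells, the hormone-producing secretory cells of the same epithelium, had 9 markers in the table. ZnSO4, averaged over PBS and Dex mice, raised 4 of them and lowered none (median LFC 0.34, beside -0.005 over all genes): Nts, neurotensin (LFC 0.54, SE 0.08, adjusted p = 0.0018), Gcg, proglucagon (LFC 0.60, SE 0.10, adjusted p = 0.0023), Pyy, peptide YY (LFC 0.70, SE 0.13, adjusted p = 0.0042), and Sct, secretin (LFC 0.46, SE 0.10, adjusted p = 0.0092). Of 12 Paneth cell markers, the antimicrobial secretory cells of the crypt, ZnSO4 raised none and lowered 3, Mptx2 (LFC -1.33, SE 0.26, adjusted p = 0.0063), Pla2g2a (LFC -0.66, SE 0.16, adjusted p = 0.019) and Mmp7 (LFC -0.57, SE 0.16, adjusted p = 0.037). Of 5 stem cell markers Lgr5 rose with ZnSO4 (LFC 0.62, SE 0.11, adjusted p = 0.0038), and with Dex Lgr5 (LFC -0.52, SE 0.11, adjusted p = 0.0050), Axin2 (LFC -0.65, SE 0.08, adjusted p = 0.00018) and Ascl2 (LFC -0.55, SE 0.13, adjusted p = 0.012) fell. Among all tested genes 12.8% were called with ZnSO4 and 21.5% with Dex. Of 7 T cell markers 4 fell with ZnSO4, the lowest LFC being that of Cd8a (LFC -1.27, SE 0.15, adjusted p = 0.00031). Tuft cell markers (6 tested) and macrophage markers (7 tested) held no called gene with ZnSO4.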
